A study of Homo sapiens with 6 samples.

Results

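The 10 genes described here encode transcription factors and cadherins that mark mesenchymal cells: SNAI1, SNAI2, TWIST1, TWIST2, ZEB1, ZEB2, PRRX1 and SOX9, and the cadherins CDH2 and CDH11. They were chosen by name, with earlier results of these data known. All 10 were found among the 21533 genes of each deposited table. They passed the filter on low counts, which left 12973 genes to test. The cells were LX-2, a line of human hepatic stellate cells made to grow without limit, labelled mesenchymal by cell type, and their RNA was sequenced. Of the 6 samples, 3 had received a control siRNA and 3 an siRNA against PERK, the endoplasmic reticulum stress sensor encoded by EIF2AK3. Both groups were then given palmitic acid, a saturated fatty acid, and RNA was collected 24 h later. Every group therefore carries the fatty acid, and cells not given it were not analysed here. All samples come from 1 cell line. The labels do not say whether the samples of a group were grown apart, so the spread behind the p-values may be technical only.

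In development and in wounded or tumour tissue, epithelial cells can loosen their contacts and take on a migratory, mesenchymal form. The zinc finger proteins of the SNAI family, the zinc finger and homeodomain proteins of the ZEB family and the basic helix-loop-helix proteins of the TWIST family are known for driving this transition, in part by repressing the gene of E-cadherin, CDH1. N-cadherin (CDH2) and cadherin 11 (CDH11) are the adhesion proteins of mesenchymal cells. Hepatic stellate cells are mesenchymal from the start, so in them these genes bear on activation and cell state and not on a change from epithelium. PRRX1 is a homeobox factor of mesenchymal progenitors, and SOX9 is best known as the master factor of cartilage and is also present in bile duct cells and activated stellate cells.

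Library depth ranged from 17937141 to 19585872 exon reads per sample, and at least 94.9% of the reads in each were placed uniquely. The detection floor of 3 reads equals 0.153 to 0.167 CPM (counts scaled to a common library total) and covers counting error only. EIF2AK3, the siRNA target, stood at 12.92, 12.98 and 13.87 CPM in control samples and at 4.37, 4.96 and 5.52 CPM in PERK siRNA samples, a fall to 37.3% of control (edgeR, adjusted p = 3e-13). Of 10 stellate cell markers, COL1A1 was the most abundant at 2839 to 2993 CPM, while DCN, LUM and DES had at most 3 reads in every sample. The stellate collagens did not move together: COL3A1 stood at 376 to 406 CPM in control and 207 to 212 CPM in PERK siRNA samples, and COL1A2 at 11.48 to 12.01 and 25.4 to 28.7 CPM. Of 9 hepatocyte markers 7 were at 0 reads in all samples, while SERPINA1 stood at 3.43 to 4.97 CPM and TF at most at 0.47 CPM. All 5 lymphocyte markers had at most 3 reads in every sample. The 6 endothelial markers summed to 11.6 to 11.9 CPM in control and 3.31 to 4.25 CPM in PERK siRNA samples, and PECAM1 alone made up most of that difference (at least 8.90 CPM in every control and 0.50 to 0.72 CPM in PERK siRNA samples). KDR stood at 1.32 to 1.61 CPM in control and 1.77 to 2.25 CPM in PERK siRNA samples, and VWF and TEK overlapped between the groups. The 6 macrophage markers summed to 81.7 to 85.1 and 72.6 to 75.4 CPM. CD68, which many cell types express, made up most of the macrophage sum, and its samples overlapped between the groups. CSF1R stood at 4.61 to 5.49 CPM in control and 0.28 to 0.78 CPM in PERK siRNA samples. CD14 stood at 9.61 to 10.35 and 6.86 to 7.34 CPM. PTPRC went the other way, at 0.11 to 0.41 and 0.52 to 0.62 CPM. The part of these markers in the results below was not tested.

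On the TPM scale, reads per exon length are divided by the sum of these values over all genes of the sample. Orders between genes on this scale rest on the deposited exon lengths. The 10 genes differed widely in TPM in the control samples. CDH2 (143 ± 3.44 TPM; SD, n = 3 here and below) and TWIST2 (137 ± 6.25) stood highest, and their samples overlapped. SOX9 (109 ± 5.96), SNAI2 (35.7 ± 1.62), TWIST1 (21.1 ± 1.99), ZEB1 (15.2 ± 0.54) and SNAI1 (11.6 ± 2.20) followed. ZEB2 (6.94 ± 0.52), CDH11 (4.38 ± 0.65) and PRRX1 (0.96 ± 0.16) were lowest, and from SOX9 downwards no gene's samples overlapped those of its neighbour. With PERK siRNA the order changed: TWIST2 (38.6 ± 2.24 TPM) dropped to the level of SNAI2 (38.4 ± 2.02), the 1 pair of neighbours whose samples overlapped in that group. ZEB2 (18.6 ± 0.06) stood above ZEB1 (15.8 ± 0.26), and SNAI1 (3.84 ± 0.38) fell below CDH11 (7.86 ± 0.37).

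Differences between the groups were tested with edgeR's quasi-likelihood test on read counts, with p-values adjusted over all genes tested, and levels are given below as TMM-normalised CPM. The threshold was an adjusted p of 0.05. Of the 10 genes, 4 fell (SNAI1, TWIST2, CDH2 and SOX9), 2 rose (ZEB2 and CDH11) and 4 did not pass (SNAI2, TWIST1, ZEB1 and PRRX1). This share is near that of the whole table, in which 69.5% of genes passed, 34.4% higher and 35.0% lower. The size of the changes is described by the same measures: 3 of the 10 (SNAI1, TWIST2 and ZEB2) changed at least 2-fold, against 7.91% of all genes tested. Of these 3, ZEB2 was higher (4.07% of all genes) and SNAI1 and TWIST2 lower (3.84%). The 6 genes that changed also passed a test against a 1.2-fold change, which 36.1% of all genes passed. The median absolute log2 fold change was 0.48 among the 10 and 0.28 among all genes. As the 10 were chosen with earlier results of these data known, these comparisons with the whole table are descriptive only. The groups did not overlap for 7 of the 10, against 71.8% of all genes. In 3 of these 7 the PERK siRNA samples were higher (35.8% of all genes) and in 4 lower (36.0%).

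**Figure D1:**
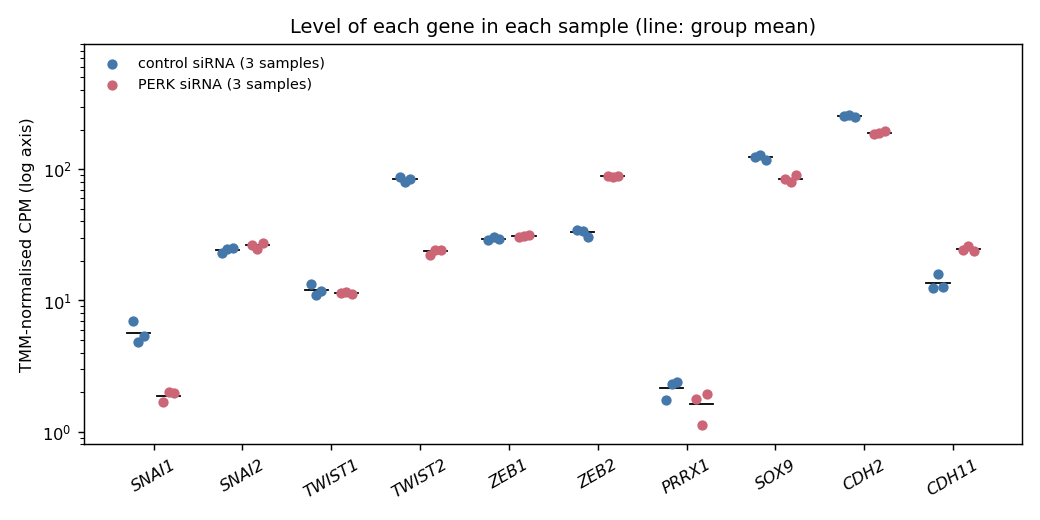
TMM-normalised CPM (log axis) of the 10 genes in each of 3 control siRNA and 3 PERK siRNA samples, with a line at each group mean. The PERK siRNA samples lie well below the controls for SNAI1 and TWIST2 and well above them for ZEB2, and the groups overlap for SNAI2, TWIST1 and PRRX1.

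Of the SNAI genes, SNAI1 fell and SNAI2 did not pass. SNAI1, which encodes Snail, a short-lived repressor of CDH1 (ENSG00000124216; chromosome 20, 49982999 to 49988886, plus strand, GRCh38), stood at 6.92, 4.83 and 5.33 CPM in control samples and at 1.68, 2.00 and 1.98 CPM in PERK siRNA samples. Every PERK siRNA sample lay below every control sample. SNAI1 thus fell to 33.1% of the control mean, from 5.69 ± 1.09 to 1.89 ± 0.18 CPM, or by -1.59 on the log2 scale (SE 0.17; edgeR gave an adjusted p of 1.6e-09). Few reads lie behind these values, 90 to 136 in a control and 30 to 39 in a PERK siRNA sample, and control sample 1 was the highest. SNAI2, which encodes Slug, its closest relative (ENSG00000019549; chromosome 8, 48917604 to 48921740, minus strand), stood at 23.0, 24.8 and 25.0 CPM in control and at 26.7, 24.6 and 27.5 CPM in PERK siRNA samples. The groups overlapped and the difference did not pass (0.11, 95% interval -0.01 to 0.23, adjusted p = 0.091), but it did pass without PERK siRNA sample 2 (0.16, adjusted p = 0.033). Under the other alternatives its adjusted p lay between 0.054 and 1, the latter against a 1.2-fold change.

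Of the TWIST genes, TWIST2 fell and TWIST1 did not pass. TWIST2, a basic helix-loop-helix factor also called Dermo1 (ENSG00000233608; chromosome 2, 238848032 to 238910543, plus strand), stood at 87.7, 79.3 and 84.5 CPM in control samples and at 22.2, 24.4 and 24.4 CPM in PERK siRNA samples. The lowest control sample was thus more than 3-fold above the highest PERK siRNA sample. TWIST2 fell from 83.8 ± 4.25 to 23.7 ± 1.26 CPM, to 28.2% of control (log2 fold change -1.82, SE 0.05), and the adjusted p by edgeR was 2.4e-23. By log2 fold change this was place 117 among the falls of all 12973 genes. TWIST1 (ENSG00000122691; chromosome 7, 19020991 to 19117672, minus strand), which can repress CDH1 and is needed for the cranial mesenchyme, stood at 13.33, 10.99 and 11.86 CPM in control and 11.4, 11.6 and 11.2 CPM in PERK siRNA samples. All 3 PERK siRNA samples lay within the range of the controls (-0.09, 95% interval -0.26 to 0.09, adjusted p = 0.39). Of the TWIST1 exon bases 6.9% overlap an antisense gene.

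Of the ZEB genes, ZEB2 rose and ZEB1 did not pass. ZEB2, also called SIP1, which binds paired E-boxes and SMAD proteins (ENSG00000169554; chromosome 2, 144364364 to 144524583, minus strand), stood at 34.5, 34.1 and 30.4 CPM in control samples and at 89.5, 87.9 and 88.8 CPM in PERK siRNA samples. The PERK siRNA samples were all well above the controls and lay close together. ZEB2 rose from 33.0 ± 2.27 to 88.7 ± 0.82 CPM, a 2.69-fold difference (log2 fold change 1.43, SE 0.04), and the adjusted p by edgeR was 4.2e-22. This was place 209 among the rises of all genes tested. ZEB1 (ENSG00000148516; chromosome 10, 31318495 to 31529814, plus strand), a repressor of the same build, stood at 28.7, 30.5 and 29.4 CPM in control and at 30.7, 30.8 and 31.6 CPM in PERK siRNA samples. Its groups lay just apart, but the difference did not pass (0.07, 95% interval -0.03 to 0.18, adjusted p = 0.22). Antisense genes overlap 5.2% of the ZEB2 exon bases and 4.2% of those of ZEB1, and whether the counting used strand is not given in the sources used here.

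ZEB1 and ZEB2 are the best known targets of the miR-200 family of epithelial microRNAs, which is why the sites are shown here, although microRNAs were not measured. The family has 2 seeds (bases 2 to 8, in capitals), the first shared by miR-200b-3p, miR-200c-3p and miR-429 and the second by miR-200a-3p and miR-141-3p (RefSeq, GRCh38.p14). In the longest annotated coding-transcript 3′ UTR of each gene (GENCODE v29), the match to the first seed, CAGTATT, stood 6 times in ZEB1 and 5 times in ZEB2, and the match to the second, CAGTGTT, 3 and 4 times. The first match was present in the 3′ UTR of 19.7% and the second in that of 22.1% of 12731 tested genes, and these UTRs are long (2549 bases in ZEB1, 5370 in ZEB2). SNAI2 and CDH11 held the first match 1 time each, SOX9 the second 1 time, and SNAI1, TWIST1, TWIST2, CDH2 and PRRX1 held neither. ZEB1 and ZEB2 thus both hold both matches, and the part of these microRNAs in the level of either gene was not tested. Below are 1 microRNA for each seed and the first 2 matches to the first seed in each gene, with the match in capitals and 5′ to 3′ on the mRNA strand.
hsa-miR-200c-3p: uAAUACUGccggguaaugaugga
hsa-miR-200a-3p: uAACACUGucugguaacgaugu
ZEB1, chr10:31527621-31527650, plus strand: gttttatcttatCAGTATTatcactcttat
ZEB1, chr10:31527715-31527744, plus strand: ctaaatccgcttCAGTATTttattatgttt
ZEB2, chr2:144389042-144389071, minus strand: actaccatacatCAGTATTtttattattat
ZEB2, chr2:144388979-144389008, minus strand: actacaatgcatCAGTATTatgattcctct

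The SNAI, ZEB and TWIST proteins themselves bind E-boxes, and the form CAGGTG is the one that SNAI and ZEB proteins are known to bind in the CDH1 promoter. It reads as CACCTG on the opposite strand, and both strands were searched. RefSeq promoters (300 bases, 250 before and 50 after a start, GRCh38.p14) matched 5 of the 10 genes: ZEB1, ZEB2, TWIST2, CDH2 and PRRX1. This E-box was present in 20.6% of all 35116 windows. It stood 1 time and 3 times in separate windows of ZEB1, and not in the windows of ZEB2, TWIST2, CDH2 or PRRX1. ZEB1, which has several starts, had more windows searched than any of these, and its other windows held none. The counts therefore do not compare the genes. TGATGNAA, the core of the element bound by ATF4 with its partners downstream of PERK, was searched on both strands as well. It was absent from all these windows and present in 3.62% of windows overall. These are letter matches in short windows. The E-boxes of ZEB1 nearest before its annotated starts are shown, with the E-box in capitals.
ZEB1, chr10:31318348-31318377, plus strand: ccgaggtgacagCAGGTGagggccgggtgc
ZEB1, chr10:31319119-31319148, plus strand: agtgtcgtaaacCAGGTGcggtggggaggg

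The cadherins moved in opposite directions. CDH2, encoding N-cadherin (ENSG00000170558; chromosome 18, 27950966 to 28177446, minus strand), stood at 254, 258 and 250.2 CPM in control samples and at 185, 189 and 194 CPM in PERK siRNA samples. The groups were far apart for their spread, but the change was moderate. CDH2 fell from 254 ± 4.04 to 189 ± 4.66 CPM, to 74.5% of control (log2 fold change -0.42, SE 0.03), and the adjusted p by edgeR was 1.9e-14. CDH11, a type II cadherin of mesenchyme and bone that is also called OB-cadherin (ENSG00000140937; chromosome 16, 64943753 to 65126112, minus strand), stood at 12.4, 15.9 and 12.7 CPM in control and at 24.2, 25.8 and 24.0 CPM in PERK siRNA samples. Control sample 2 was its highest control and still lay below every PERK siRNA sample. CDH11 rose from 13.7 ± 1.93 to 24.6 ± 1.00 CPM (log2 fold change 0.85, SE 0.08, adjusted p = 1.7e-10 by edgeR). CDH1, the counterpart of CDH2 in epithelium, had 0 reads in all 6 samples, so at most 3 reads, or 0.167 CPM, per sample are allowed by that count.

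Of the remaining factors SOX9 was abundant and PRRX1 scarce. SOX9 (ENSG00000125398; chromosome 17, 72121020 to 72126420, plus strand) stood at 125, 128 and 117 CPM in control samples and at 84.1, 79.3 and 90.7 CPM in PERK siRNA samples. The groups did not overlap. SOX9 fell from 123 ± 5.77 to 84.7 ± 5.71 CPM, to 68.8% of control (log2 fold change -0.54, SE 0.05), and the adjusted p by edgeR was 1.9e-08. It reached 0.00021 with a replicate block. The 6 cholangiocyte markers, SOX9 among them, summed to at most 139 CPM in control and to 86.2 to 97.7 CPM in PERK siRNA samples, most of it SOX9. KRT7, a keratin of bile duct cells, moved with SOX9, at 10.5 to 12.4 CPM in control and 6.28 to 6.66 CPM in PERK siRNA samples, and these groups did not overlap. KRT19 was at most 0.56 CPM, and EPCAM and CFTR had at most 3 reads in every sample, and the part of these markers in the SOX9 difference was not tested. PRRX1 (ENSG00000116132; chromosome 1, 170662728 to 170739419, plus strand), a homeobox gene of limb and craniofacial mesenchyme, had only 22 to 46 reads per sample, at 1.73, 2.31 and 2.38 CPM in control and 1.79, 1.13 and 1.93 CPM in PERK siRNA samples. The groups overlapped, and the interval of the difference was wide (-0.41, 95% interval -0.88 to 0.07, adjusted p = 0.12 by edgeR). A fall of 0.88 on the log2 scale and no change therefore both lie within the interval of PRRX1.

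**Figure D2:**
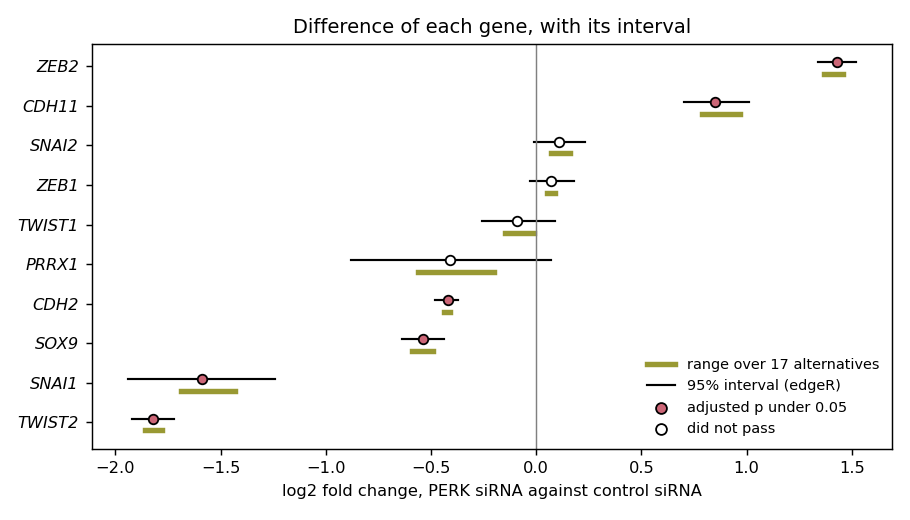
Log2 fold change of each gene, PERK siRNA against control siRNA (horizontal axis), with the 95% interval of the edgeR fit as a black line and the range over 17 alternative settings as a bar. Filled points passed an adjusted p of 0.05, from TWIST2 at -1.82 to ZEB2 at 1.43, and the intervals of SNAI2, ZEB1, TWIST1 and PRRX1 include 0.

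Since members of a pair have related roles, their balance was compared within each sample as a log2 ratio of TPM. This was done for 4 pairs, with a two-sided exact permutation test, for which 3 samples against 3 cannot give a p below 0.1. In every pair the groups did not overlap and the exact p was 0.1, also after adjustment over the 4 pairs. Each pair holds a gene that passed above with its groups apart, so the ratios restate those differences and add no separate support. For single genes, the groups did not overlap in 71.8% of all genes tested. TWIST2 made up 86.7 ± 0.6% of the summed TWIST transcripts in control and 66.1 ± 1.3% in PERK siRNA samples, and the log2 ratio to TWIST1 went from 2.71 ± 0.07 to 0.96 ± 0.08. The summed TWIST level was 158 ± 8.2 TPM in control and 58.4 ± 2.4 TPM in PERK siRNA samples. ZEB2 made up 31.4 ± 1.6% of the summed ZEB TPM in control and 54.0 ± 0.5% in PERK siRNA samples, and the sum was 22.1 ± 0.8 and 34.4 ± 0.2 TPM. On the TPM scale the higher gene of the pair thus changed from ZEB1 to ZEB2. That order rests on the deposited exon lengths, 6800 bases for ZEB1 and 16594 for ZEB2, where GENCODE v29 gives 8650 and 25058. Other lengths were not tried. In CPM, which leaves out exon length, the ZEB2 mean was above that of ZEB1 in both groups. SNAI2 made up 75.4 ± 4.3% and 90.9 ± 1.0% of the SNAI1 and SNAI2 sum, which was itself 47.3 ± 0.6 and 42.3 ± 1.9 TPM. SNAI1 itself was 3.01-fold lower. CDH11 made up 3.0 ± 0.4% and 6.9 ± 0.3% of the sum with CDH2.

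**Figure D3:**
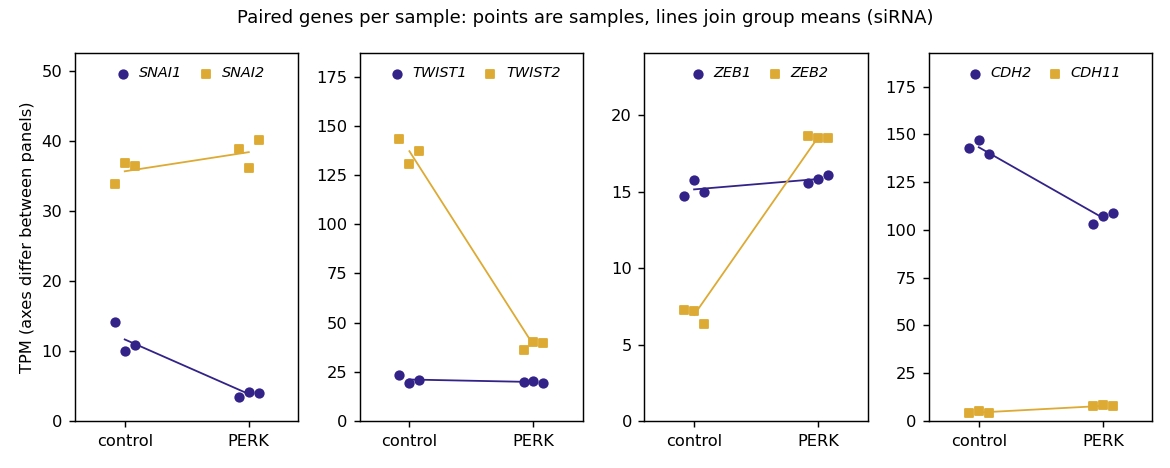
TPM of the 4 pairs in each sample (points) by siRNA group, with lines joining the group means; the vertical axes start at 0 and differ between panels. TWIST2 drops towards TWIST1, ZEB2 crosses from below to above ZEB1, SNAI1 drops further below SNAI2, and CDH11 stays far below CDH2.

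Genes around the 10 were read from 9 lists. Together these held 139 genes, of which 88 were tested, 24 rose and 38 fell, and the median log2 fold change was -0.02 against 0.00 for all genes tested. These counts, and those of each list below, are to be read against the whole table, in which 34.4% of genes rose and 35.0% fell, and the share called in the lists together was near that background. Among 18 further transcription factors of the same families or of mesenchymal cells only 9 passed the filter, of which 2 fell and 1 rose. FOXF1, a forkhead factor of visceral and liver mesenchyme, fell from 47.8 ± 0.93 to 20.4 ± 1.41 CPM (-1.23), and SOX4 fell (-0.72). The scarce SOX5, a partner of SOX9, rose from 1.36 ± 0.44 to 2.37 ± 0.45 CPM (0.79, adjusted p = 0.0043 by edgeR). TBX18, the most abundant of the list, stood at 40.2 ± 0.55 and 40.7 ± 1.88 CPM and did not pass (0.01, adjusted p = 0.80).

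TWIST proteins act as dimers with E proteins, which ID proteins can capture. Of 6 tested genes of this list 3 rose and 2 fell. TCF4, the E protein E2-2 (not the WNT effector TCF7L2), stood at 158, 153 and 152 CPM in control and at 37.7, 42.5 and 40.2 CPM in PERK siRNA samples. No sample of one group came near the other, and TCF4 fell to 26.0% of control (-1.94, SE 0.04, adjusted p = 1.2e-26 by edgeR), beside 28.2% for TWIST2. The other E protein genes rose: TCF12 (0.48) and the most abundant, TCF3 (0.19, from 163 ± 5.50 to 186 ± 4.56 CPM). The TCF3 rise did not pass the test against a 1.2-fold change (adjusted p = 1). The ID genes, inhibitors of E proteins, did not move together. ID3 rose (0.64), ID2 fell (-0.46), and ID1 did not pass (0.11, adjusted p = 0.11 by edgeR).

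SNAI and ZEB proteins repress genes through shared corepressors, and all 15 of those listed were tested, with 8 falls and 4 rises of mostly small size (median -0.07). CTBP2, a C-terminal binding protein that ZEB factors recruit, rose from 62.4 ± 0.98 to 104 ± 1.79 CPM (0.74), although 34.7% of its exon bases overlap antisense genes. Its relative CTBP1 stood at 287 ± 4.94 and 291 ± 3.92 CPM and did not pass (0.02, adjusted p = 0.56 by edgeR). EZH2, the methyltransferase of Polycomb complex PRC2, fell (-0.55). Among 13 genes that set the turnover of the SNAI1, SNAI2 and TWIST1 proteins 9 fell and 2 rose, with a median of -0.32. FBXL14, a ubiquitin ligase subunit for Snail and other factors of this group, fell from 25.7 ± 1.55 to 10.9 ± 0.71 CPM (-1.24). COPS5 (-0.57) and CSNK2A1 (-0.26) also had lower RNA levels, the latter with 70.7% of its reads placed uniquely. The counts and the median of this list give no direction of protein turnover, which was not tested. The CSNK2A1 fall did not pass against a 1.2-fold change (adjusted p = 0.47).

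Cadherins hold cells together through catenins. Of 21 other cadherin genes only 6 were tested, 11 had at most 3 reads in every sample, and 4 rose and 1 fell. CDH4, or R-cadherin, was the most abundant and rose slightly, from 225 ± 5.59 to 276 ± 7.83 CPM (0.30; not against a 1.2-fold change, adjusted p = 0.10). CDH18 rose from 6.68 ± 0.89 to 12.2 ± 0.88 CPM (0.88), and CDH13, a cadherin with a lipid anchor in place of a cytoplasmic tail, fell (-0.49). In the list of 12 tested catenins and cadherin-bound proteins 7 fell and 4 rose. CTNNB1, β-catenin, which binds cadherin tails and also carries WNT signals, stood at 217, 219 and 220 CPM in control and at 503, 500.03 and 513 CPM in PERK siRNA samples. It rose 2.31-fold by these means, to 231.3% of control (log2 fold change 1.21, SE 0.02, adjusted p = 2.7e-26 by edgeR). CTNNBIP1, a small protein that binds β-catenin and keeps it from TCF factors, fell from 95.5 ± 2.62 to 17.7 ± 1.64 CPM (-2.43), with 12.7% of its exon bases overlapped by an antisense gene. The phosphatase gene PTPRF rose (0.61), and the most abundant gene of the list, the actin linker VCL, fell slightly (-0.10; not against a 1.2-fold change, adjusted p = 1).

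Of 11 tested genes of proteases that cut cadherins, 5 fell and 3 rose. ADAM10, which sheds N-cadherin, fell from 218 ± 2.62 to 130 ± 4.27 CPM (-0.75), MMP14 fell (-0.74), and ADAM9, the most abundant, rose (0.66). The count of falls in this list was 3 with upper-quartile factors, with DESeq2 and without control sample 1. Among 25 epithelial genes only 9 were tested and 12 had at most 3 reads in every sample, among them EPCAM, GRHL2, ESRP1 and CDH1. Of the tested genes 3 fell and 2 rose, and 4 of 9 did not pass, where 69.5% of all genes passed. CLDN1, a tight junction claudin, had 48, 74 and 72 reads in control and 4 reads in each PERK siRNA sample, and fell from 3.38 ± 0.82 to 0.21 ± 0.01 CPM (-3.95, SE 0.32, adjusted p = 4.7e-12 by edgeR). PATJ fell (-0.59) and TJP1, or ZO-1, rose (0.29; not against a 1.2-fold change, adjusted p = 0.14).

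In cartilage SOX9 drives matrix genes together with SOX5 and SOX6. The list of 16 cartilage targets and partners of SOX9 also holds RUNX genes, and 8 of the 16 were tested. Of these 2 rose, MATN3 and SOX5 (also in the list of further factors above), and 1 fell, RUNX2. Most genes of the list were thus scarce or did not pass in these cells. RUNX2, the osteoblast factor, fell from 29.9 ± 1.28 to 15.7 ± 1.58 CPM (-0.93), and MATN3, a cartilage matrilin, rose from 2.25 ± 0.59 to 4.44 ± 0.48 CPM (0.98).

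**Figure D4:**
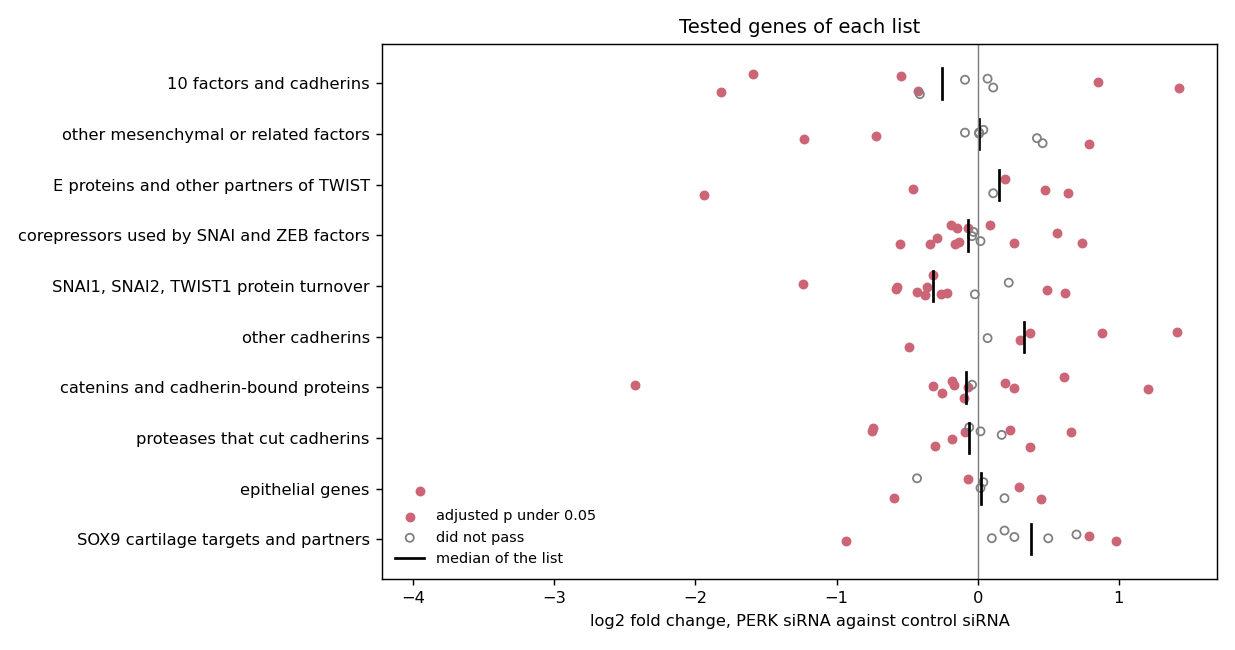
Log2 fold change (horizontal axis) of every tested gene of the 10 factors and cadherins and of the 9 lists around them, with filled points for an adjusted p under 0.05 and a black bar at each list's median. Every list holds genes on both sides of 0, and the medians lie between -0.32 and 0.38.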

How the data were processed

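Groups and replicate numbers came from the sample titles. The 10 genes and the lists were chosen with earlier results of these data known. Per the file headers, the deposited values are counts of exon reads (total and unique) for each gene and TPM values. That TPM matches total exon reads scaled by exon length to a relative difference of 7.1e-08. Per the submitters' processing notes the build was hg38. Which aligner, counter and annotation the authors used is not given in the sources used here. Per the labels' protocols, libraries were made with a directional kit.

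Total exon reads were tested with edgeR 4.0.16 in R 4.3.3 (TMM factors, default expression filter, robust quasi-likelihood, no covariate, Benjamini-Hochberg adjustment). TPM was used only for levels between genes. The code was tested on simulated data. Replicates differed by more than sampling noise (chi-square per degree of freedom 1.62 to 2.32 within groups), so none was taken for a copy. Besides the 10 genes, CDH1 and EIF2AK3, the text names up to 3 called genes with the smallest adjusted p and the most abundant tested gene of each list; some of these are not reported here. EPCAM, GRHL2, ESRP1, ID1, ID2, CTBP1 and the markers were named after their values were seen. Alternatives were other scaling factors and filters, DESeq2 1.42.0, limma-voom (limma 3.58.1), non-robust dispersion, unique exon reads, a replicate block, a test against a 1.2-fold change, and leaving out each sample. Places came from GENCODE v29 (GRCh38).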

Additional observations from a re-analysis of the deposited data

How the results depend on the processing

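The directions of all 10 genes held under all 17 alternative settings, and so did the calls, apart from SNAI2 without PERK siRNA sample 2. Of the 41 genes named by the rule that were tested, 33 kept their direction and side of the threshold in every setting. TBX18, which did not pass, turned sign without PERK siRNA sample 1 (-0.02), and its value without each sample in turn ran from -0.02 to 0.05. Against a 1.2-fold change, 2345 genes were higher and 2344 lower over the whole table, and 20 genes of the 9 lists were lower in place of 38, as a stricter null calls fewer genes. Same-numbered samples did not deviate together (r of 0.01, -0.03 and -0.03), so no pairing by number was seen. Such a check cannot tell whether same-numbered samples were handled together. With the replicate block 4460 genes were higher and 4543 lower, and 2 of the 10 genes were higher and 4 lower. The log2 ratio differences of the 4 pairs ranged from 1.48 to 1.82 for SNAI2 to SNAI1, -1.79 to -1.70 for TWIST2 to TWIST1, 1.24 to 1.41 for ZEB2 to ZEB1 and 1.15 to 1.39 for CDH11 to CDH2. Low counts limit the precision of scarce genes such as PRRX1 (SE 0.23), SOX5 (0.24), MATN3 (0.18), SNAI1 (0.17) and CLDN1 (0.32).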

Other observations

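Other adhesion genes were read from 3 lists written after the values of the 10 genes had been seen, and the genes named here were picked for their values. Counts in these lists are to be read against the whole table, in which 69.5% of genes passed, 34.4% higher and 35.0% lower. Of 12 desmosomal genes 4 were tested, 3 rose and 1 fell. DSG2, a desmosomal cadherin, rose by 0.99 on the log2 scale, from a mean of 29.6 ± 3.19 CPM in control to 59.1 ± 1.16 CPM in PERK siRNA samples (± SD, n = 3), and the plaque gene PKP3 fell (-0.74). Of 14 tested nectins and adhesion molecules of the immunoglobulin family 6 rose and 5 fell. L1CAM rose from 110 ± 0.85 to 225 ± 1.77 CPM (1.03) and ALCAM rose (0.53), while NECTIN1 (-0.40), NECTIN2 (-0.46) and the poliovirus receptor gene PVR (-0.74) fell. Of 15 tested protocadherins and large cadherins 3 rose and 5 fell. FAT3 rose from 44.9 ± 1.89 to 94.0 ± 2.15 CPM (1.07), its relative FAT1 did not pass (0.03, adjusted p = 0.45 by edgeR), and PCDH7 (-0.72) and PCDH17 (-0.75) fell.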
